A study of Homo sapiens with 6 samples.

Results

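The genes described here are 10 targets of the transcription factor NF-κB, chosen by their symbols out of 60662 genes with a value. They are the NF-κB subunit genes NFKB2 and RELB, the feedback inhibitor genes NFKBIA and TNFAIP3, the ubiquitin ligase gene BIRC3, and the chemokine genes CXCL8, CXCL1, CXCL2, CXCL3 and CCL20. They were followed in HCT116, an established human colorectal carcinoma cell line, by RNA-seq of poly-A selected RNA. The study asked how depletion of the long noncoding RNA GMDS-AS1 changes gene expression. The shCtrl group held 3 libraries of cells stably transduced by lentivirus with a nontarget control shRNA and labelled WT in genotype. The GMDS-AS1 shRNA2 group, called GMDS-AS1 KD here, held 3 libraries of cells stably transduced with 1 shRNA against GMDS-AS1. All 6 libraries come from 1 cell line grown in McCoy's 5a medium with serum, no cytokine is named in the labels, and the labels call the libraries of a group biological replicates. With 1 shRNA, an effect of the target and an effect of that shRNA on other RNAs cannot be told apart.

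NF-κB is a family of dimers built from RELA, RELB, REL and the processed products of NFKB1 and NFKB2. In resting cells the dimers are held in the cytoplasm by IκB proteins. The canonical branch frees RELA dimers when the IκB kinase complex marks IκBα for degradation, and the noncanonical branch frees RELB dimers when the NFKB2 precursor is processed. Active NF-κB raises its own inhibitors, such as IκBα and A20, and in the intestinal epithelium it raises chemokines that bind the neutrophil receptors CXCR1 and CXCR2. The mRNAs of many of these chemokines carry AU-rich elements in their 3′ UTR, to which proteins that control mRNA decay or stability bind, HuR among them.

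The binding site of NF-κB in DNA is known as the kappa B site, and the promoters show how alike the genes are in this respect. Promoter sequences from RefSeq (GRCh38.p14), each running from 250 bases before to 50 bases after an annotated gene start, were on file for 9 of the 10 genes, and RELB is named only. NFKB2 has 3 annotated starts, so 11 windows were searched on both strands for the 10-base kappa B consensus and for the 9-base form GGANTTTCC, which can overlap it. The windows of CXCL8, of the 3 close paralogs CXCL1, CXCL2 and CXCL3, and of both feedback inhibitors are printed 5′ to 3′ along the gene, because the test called CXCL8 and the inhibitors lower and did not call the 3 paralogs. Capitals mark the matched bases.
CXCL8: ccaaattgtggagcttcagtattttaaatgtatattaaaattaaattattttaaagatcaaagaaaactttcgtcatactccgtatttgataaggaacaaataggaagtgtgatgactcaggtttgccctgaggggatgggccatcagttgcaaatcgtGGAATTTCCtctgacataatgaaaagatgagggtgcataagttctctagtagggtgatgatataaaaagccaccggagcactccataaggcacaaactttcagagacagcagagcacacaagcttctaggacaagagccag
CXCL1: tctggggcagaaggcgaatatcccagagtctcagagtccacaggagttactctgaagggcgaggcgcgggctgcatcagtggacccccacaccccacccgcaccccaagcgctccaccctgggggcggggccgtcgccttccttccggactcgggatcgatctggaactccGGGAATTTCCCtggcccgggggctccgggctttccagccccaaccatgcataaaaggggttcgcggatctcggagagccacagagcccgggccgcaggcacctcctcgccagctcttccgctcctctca
CXCL2: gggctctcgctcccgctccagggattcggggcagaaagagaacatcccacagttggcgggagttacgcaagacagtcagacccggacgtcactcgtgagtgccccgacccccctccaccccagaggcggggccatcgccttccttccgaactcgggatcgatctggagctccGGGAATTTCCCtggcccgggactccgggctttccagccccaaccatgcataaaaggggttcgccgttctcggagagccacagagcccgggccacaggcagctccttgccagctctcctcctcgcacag
CXCL3: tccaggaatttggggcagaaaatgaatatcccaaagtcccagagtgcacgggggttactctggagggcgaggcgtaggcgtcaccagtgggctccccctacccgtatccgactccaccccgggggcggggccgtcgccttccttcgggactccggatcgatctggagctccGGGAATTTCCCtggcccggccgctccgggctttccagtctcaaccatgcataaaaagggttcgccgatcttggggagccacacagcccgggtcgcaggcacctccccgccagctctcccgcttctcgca
NFKBIA: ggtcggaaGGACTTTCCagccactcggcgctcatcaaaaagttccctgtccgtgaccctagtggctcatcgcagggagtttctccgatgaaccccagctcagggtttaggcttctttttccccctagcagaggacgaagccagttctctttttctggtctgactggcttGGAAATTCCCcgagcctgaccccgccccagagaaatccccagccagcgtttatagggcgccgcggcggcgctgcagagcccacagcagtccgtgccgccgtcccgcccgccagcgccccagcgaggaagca
TNFAIP3: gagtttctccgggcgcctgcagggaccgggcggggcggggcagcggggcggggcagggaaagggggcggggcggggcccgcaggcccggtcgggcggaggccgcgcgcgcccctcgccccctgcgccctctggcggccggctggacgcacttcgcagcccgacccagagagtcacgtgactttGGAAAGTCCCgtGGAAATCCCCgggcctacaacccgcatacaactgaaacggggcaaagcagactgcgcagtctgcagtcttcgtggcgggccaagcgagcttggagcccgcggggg

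These windows lie at chr4:73740319-73740618 (+ strand), chr4:73869143-73869442 (+ strand), chr4:74099146-74099445 (- strand), chr4:74038640-74038939 (- strand), chr14:35404700-35404999 (- strand) and chr6:137867009-137867308 (+ strand). CXCL1, CXCL2 and CXCL3 carried the same 11 bases, GGGAATTTCCC, starting 79, 78 and 79 bases before the start. CXCL8 carried GGAATTTCC 91 bases before the start, which matches the 9-base form but not the consensus. NFKBIA had matches 242 and 81 bases before its start, and TNFAIP3 had neighbouring matches at 67 and 55 bases. Of the windows not printed, CCL20 held GGAAAACCCC 79 bases before the start, BIRC3 held GGAAATCCCC at 199 and GGAGTTCCCC at 135 bases, and both later starts of NFKB2 held 2 matches each, while the first held none. In all, 10 of 11 windows and 9 of 9 genes with a window held a match to either form. Of all 35116 promoter windows in the table, 11.3% held the consensus, 1.64% the 9-base form and 12.1% either. The genes were chosen as NF-κB targets, so the share among them is a description, and a match is not evidence of binding in HCT116 cells.

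The authors gave expression in TPM, a unit that is scaled to transcript length and to the library total, so levels can be set against each other between genes. TPM keeps no read total. From the spacing of the lowest values, and with fragments of 200 bases assumed, 1 read on 1 kb of transcript was worth between 0.0495 and 0.055 TPM in the shCtrl libraries and between 0.0478 and 0.0561 TPM in the GMDS-AS1 KD libraries. GMDS-AS1 itself, listed under the symbol GMDS-DT, had 1.66, 2.21 and 1.34 TPM in shCtrl against 0.88, 0.91 and 0.79 TPM in GMDS-AS1 KD. Its groups did not overlap, and its log2 fold change was -0.41 (SE 0.14, limma adjusted p = 0.0407). Leaving out 1 library gave -0.50 to -0.29. The limma adjusted p was 0.0277 without the third shCtrl library and 0.0742 to 0.112 without any other. It was not called in 8 of the 14 alternatives described at the end. The epithelial markers EPCAM and CDH1 were present in all 6 libraries, and among leukocyte markers the defining PTPRC was listed at 0 in all 6. The summed level of the 5 epithelial markers was 9160 to 9610 TPM in shCtrl and 3430 to 3540 TPM in GMDS-AS1 KD, with KRT8, KRT18 and KRT19 lower. The 6 leukocyte markers summed to 8.29 to 9.77 and to 8.22 to 8.59 TPM. The 5 fibroblast markers summed to 13.4 to 15 and to 10.2 to 11.2 TPM, and the 3 endothelial markers to 0.48 to 0.94 and to 0.01 to 0.39 TPM. Of these lists, 3 leukocyte, 3 fibroblast and 2 endothelial markers stayed under 0.5 TPM in every library, and the part of these differences in the results was not tested.

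In GMDS-AS1 KD cells CXCL8 was 12.3-fold lower in mean TPM as deposited, without scaling, TNFAIP3 3.68-fold, RELB 3.14-fold, BIRC3 2.7-fold and NFKBIA 2.66-fold. The mean TPM of CXCL2 was 4.62-fold and that of CCL20 4.18-fold lower, but both rest on values near or under 1 TPM, CXCL2 was not called and CCL20 was not tested. A gene was tested when 3 or more libraries held 0.5 TPM or more of it. This left 16901 genes, with 9 of the 10 among them; CCL20 did not reach this level. Groups were compared after trimmed-mean scaling, on log2(TPM + 1), a scale that understates the fold of genes near 1 TPM. The scaling lowered the GMDS-AS1 KD factors by 0.25 on the log2 scale. This also makes the fitted falls smaller than the folds in mean TPM, at any level. Of the 9 genes tested, 6 were lower in GMDS-AS1 KD at a limma adjusted p under 0.05 (NFKB2, RELB, NFKBIA, TNFAIP3, BIRC3 and CXCL8), 0 were higher, and CXCL1, CXCL2 and CXCL3 were not called. Over all genes tested, 25.9% were called lower and 28.5% higher. A fall of at least 2-fold was called for 4 genes, CXCL8, RELB, NFKBIA and TNFAIP3, against 4.24% of all genes tested, and a rise of at least 2-fold for 0, against 2.93%. The median log2 fold change of the 9 genes was -0.78, where that of all genes tested was 0. CXCL8 and CXCL2 were under 0.5 TPM in every GMDS-AS1 KD library and passed the filter through the shCtrl group alone. CXCL1 and CXCL3 reached 0.5 TPM only in the third GMDS-AS1 KD library, so they too passed because of the shCtrl group. Passing in this way favours a value below 0, so the median and the counts over the 9 genes are descriptions. In TPM as deposited, every GMDS-AS1 KD library was below every shCtrl library for 8 of the 9 genes tested, and this held for 44.9% of all genes tested. In bulk RNA, fewer cells that express a gene and less of its RNA per cell cannot be told apart.

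**Figure D1:**
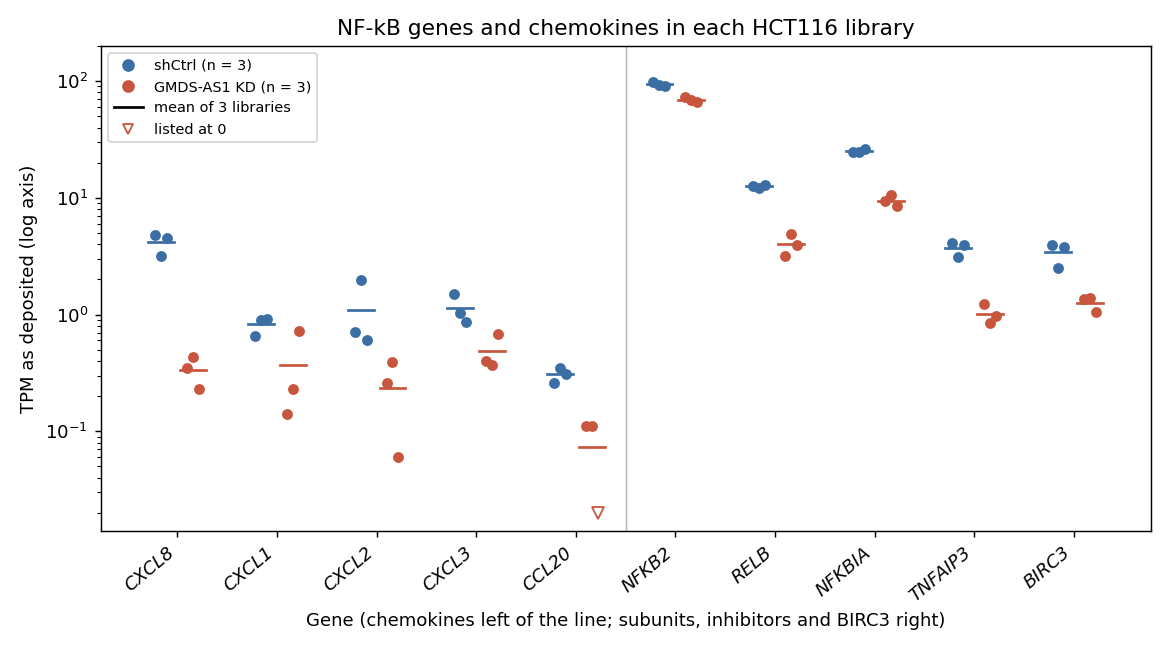
TPM as deposited (log axis) of the 10 genes in each of the 3 shCtrl and 3 GMDS-AS1 KD libraries of HCT116 cells, 1 point per library, with the mean of each group as a bar and an open triangle for a value listed at 0. The groups overlap only for CXCL1, where 1 GMDS-AS1 KD library is at 0.73 TPM, and NFKB2 is the highest of the 10 genes in both groups.

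NFKB2 (chr10:102394110-102402529, + strand, 23 exons in the transcript used) encodes the p100 precursor of p52, the partner of RELB in the noncanonical branch. It stood at 97.93, 93.42 and 90.46 TPM in shCtrl and at 73.39, 68.21 and 66.16 TPM in GMDS-AS1 KD. The groups were apart, but the fall was the smallest of the 9 genes, with a log2 fold change of -0.19 (SE 0.049, 95% interval -0.31 to -0.07, limma adjusted p = 0.0143). With no filter on low genes the same value was -0.16 and its adjusted p 0.0761, above the threshold.

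RELB (chr19:45001430-45038198, + strand, 12 exons) encodes the transcription-activating partner in that dimer. It stood at 12.66, 12.11 and 12.89 TPM in shCtrl and at 3.19, 4.88 and 3.91 TPM in GMDS-AS1 KD. The lowest shCtrl library was well above the highest GMDS-AS1 KD library, and mean TPM was 3.14-fold lower (12.6 ± 0.401 against 3.99 ± 0.848, SD, n = 3). Its log2 fold change was -1.24 (SE 0.13, limma adjusted p = 0.000263). The ratio of NFKB2 to RELB TPM within a library, which no scaling between libraries changes, was 7.74, 7.71 and 7.02 in shCtrl and 23, 14 and 16.9 in GMDS-AS1 KD. The ratios did not overlap, with p = 0.1 in a two-sided exact permutation test, the smallest that 3 libraries against 3 can give.

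The other subunit genes were taken for comparison. RELA, the activating subunit of the canonical branch, was at 65.8 ± 1.49 TPM in shCtrl and 40.6 ± 2.86 TPM in GMDS-AS1 KD (SD, n = 3), with a log2 fold change of -0.44 (SE 0.053, limma adjusted p = 0.000451). NFKB1, which encodes its partner p50, was at 14.2 ± 0.465 and 11.6 ± 0.306 TPM (SD, n = 3). Its log2 fold change was -0.04 with a limma adjusted p of 0.615. The NFKB1 call depended on the scaling. On TPM as deposited its log2 fold change was -0.27 (limma adjusted p = 0.00587), and that of RELA was -0.68 (limma adjusted p = 6.79e-05). The ratio of RELB to RELA was 0.197, 0.181 and 0.195 in shCtrl and 0.0835, 0.122 and 0.0893 in GMDS-AS1 KD, without overlap (two-sided exact permutation p = 0.1). RELB was therefore lower relative to both NFKB2 and RELA in each GMDS-AS1 KD library than in any shCtrl library.

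Both feedback inhibitors fell. NFKBIA (chr14:35401511-35404749, - strand, 6 exons) encodes IκBα, which binds RELA dimers and is resynthesised after each activation. It stood at 24.66, 24.9 and 26.19 TPM in shCtrl and at 9.39, 10.6 and 8.46 TPM in GMDS-AS1 KD. The gap between these groups was far larger than the spread within them, with means of 25.2 ± 0.823 and 9.48 ± 1.07 TPM (SD, n = 3), 2.66-fold lower. The log2 fold change was -1.10 (SE 0.09, 95% interval -1.31 to -0.88, limma adjusted p = 7.17e-05).

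TNFAIP3 (chr6:137867188-137883312, + strand, 9 exons) encodes A20, a ubiquitin-editing enzyme that ends signalling from the TNF receptor. It stood at 4.08, 3.09 and 3.97 TPM in shCtrl and at 1.22, 0.84 and 0.97 TPM in GMDS-AS1 KD. The groups did not overlap, and mean TPM was 3.68-fold lower in GMDS-AS1 KD. On the log2 scale the change was -1.07 (SE 0.13, limma adjusted p = 0.000542).

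BIRC3 (chr11:102317450-102339403, + strand, 9 exons) encodes cIAP2, a ubiquitin ligase that acts at the TNF receptor and keeps the noncanonical kinase NIK low. It stood at 3.95, 2.51 and 3.79 TPM in shCtrl and at 1.35, 1.39 and 1.06 TPM in GMDS-AS1 KD. The second shCtrl library was the lowest of its group and still above all GMDS-AS1 KD libraries. On the log2 scale the change was -0.78 (SE 0.16, limma adjusted p = 0.00565). The ratio of BIRC3 to its paralog BIRC2, which encodes cIAP1, was 0.141, 0.103 and 0.144 in shCtrl and 0.0706, 0.0721 and 0.0567 in GMDS-AS1 KD, again without overlap (two-sided exact permutation p = 0.1).

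Of the 5 chemokines, CXCL8 was the highest in shCtrl and had the largest fall. CXCL8 (chr4:73740506-73743716, + strand, 4 exons) encodes interleukin-8, the main neutrophil attractant of human epithelium. It stood at 4.81, 3.16 and 4.5 TPM in shCtrl and at 0.35, 0.43 and 0.23 TPM in GMDS-AS1 KD. All 3 GMDS-AS1 KD libraries were far below the lowest shCtrl library, and mean TPM was 12.3-fold lower (4.16 ± 0.877 against 0.337 ± 0.101, SD, n = 3). Its log2 fold change was -1.81 (SE 0.16, 95% interval -2.18 to -1.43, limma adjusted p = 9.85e-05), the fall of rank 77 among the genes tested. CXCL8 passed the filter through the shCtrl group alone, so this rank is a description. With a pseudocount of 0.1 in place of 1 the log2 fold change was -3.07. The estimate of reads from the spacing of low values puts these levels at about 135, 87 and 137 reads in shCtrl and 11, 13 and 6 reads in GMDS-AS1 KD.

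CXCL1, CXCL2 and CXCL3 encode GROα, GROβ and GROγ, ligands of CXCR2, and stood near 1 TPM in shCtrl. These genes passed the filter because of the shCtrl group, which favours a value below 0. CXCL1 (chr4:73869393-73871242, + strand) was at 0.66, 0.9 and 0.92 TPM in shCtrl and at 0.14, 0.23 and 0.73 TPM in GMDS-AS1 KD. The third GMDS-AS1 KD library lay within the shCtrl range while the other two were far below it. The log2 fold change was -0.36 (SE 0.19, 95% interval -0.81 to 0.1, limma adjusted p = 0.157). Without that library it was -0.55 with a limma adjusted p of 0.0236. Leaving out any other library gave adjusted p values of 0.166 to 0.376.

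CXCL2 (chr4:74097035-74099293, - strand) was at 0.71, 1.97 and 0.6 TPM in shCtrl and at 0.26, 0.39 and 0.06 TPM in GMDS-AS1 KD. The groups did not overlap, but the second shCtrl library held more than the other two together. The log2 fold change was -0.63 (SE 0.25, 95% interval -1.22 to -0.03, limma adjusted p = 0.0732), and -0.35 with an adjusted p of 0.145 without that library. The lowest value, in the third GMDS-AS1 KD library, corresponds to about 1 read.

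CXCL3 (chr4:74036589-74038807, - strand) was at 1.51, 1.03 and 0.87 TPM in shCtrl and at 0.4, 0.37 and 0.68 TPM in GMDS-AS1 KD. Every GMDS-AS1 KD library was lower than every shCtrl library. The log2 fold change was -0.42 (SE 0.16, 95% interval -0.79 to -0.05, limma adjusted p = 0.0579), close to the threshold. Its adjusted p was 0.027 on TPM as deposited and 0.0451 without the third GMDS-AS1 KD library. Leaving out any other library gave limma adjusted p values of 0.0569 to 0.158 for CXCL3. Among the fits that left out 1 library, CXCL1 and CXCL3 were thus each called only without the third GMDS-AS1 KD library. That library was the highest of its group for both.

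The 3 genes are near copies, so reads may have been divided between them by the estimation of expression. Their coding sequences have 324 bases each and were identical at 93.5% of positions between CXCL1 and CXCL2, at 90.7% between CXCL1 and CXCL3 and at 94.4% between CXCL2 and CXCL3. Of the 50-base windows of the CXCL2 transcript, 5.13% were found unchanged in CXCL1 and 4.62% in CXCL3, and none of the CXCL8 windows was found in any of them. The summed level of the 3 genes depends less on that division. It is not free of it, since the transcripts used differ in length (1097, 1218 and 1075 bases) and the handling of shared reads is not known. The sum was 2.88, 3.9 and 2.39 TPM in shCtrl and 0.8, 0.99 and 1.47 TPM in GMDS-AS1 KD. The means were 3.06 ± 0.77 and 1.09 ± 0.345 TPM (SD, n = 3), with no overlap (two-sided exact permutation p = 0.1, the smallest possible). The ratio of CXCL8 to this sum was 1.67, 0.81 and 1.88 in shCtrl and 0.437, 0.434 and 0.156 in GMDS-AS1 KD. CXCL8 was lower relative to the 3 other genes in every GMDS-AS1 KD library, also without overlap (p = 0.1 in the same exact test).

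CCL20 (chr2:227805739-227817564, + strand), a ligand of the receptor CCR6 that attracts lymphocytes and dendritic cells to mucosa, was the lowest of the 10 genes. It was listed at 0.26, 0.35 and 0.31 TPM in shCtrl and at 0.11, 0.11 and 0 TPM in GMDS-AS1 KD, which corresponds to about 3 to 4 reads against 0 to 1 read. It was not tested at the filter used. In the fit without a filter its log2 fold change was -0.24 (SE 0.064, limma adjusted p = 0.0404), on a scale that leaves little room for a fall at this level. The 5 chemokines together summed to 7.95, 7.41 and 7.2 TPM in shCtrl and to 1.26, 1.53 and 1.7 TPM in GMDS-AS1 KD.

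**Figure D2:**
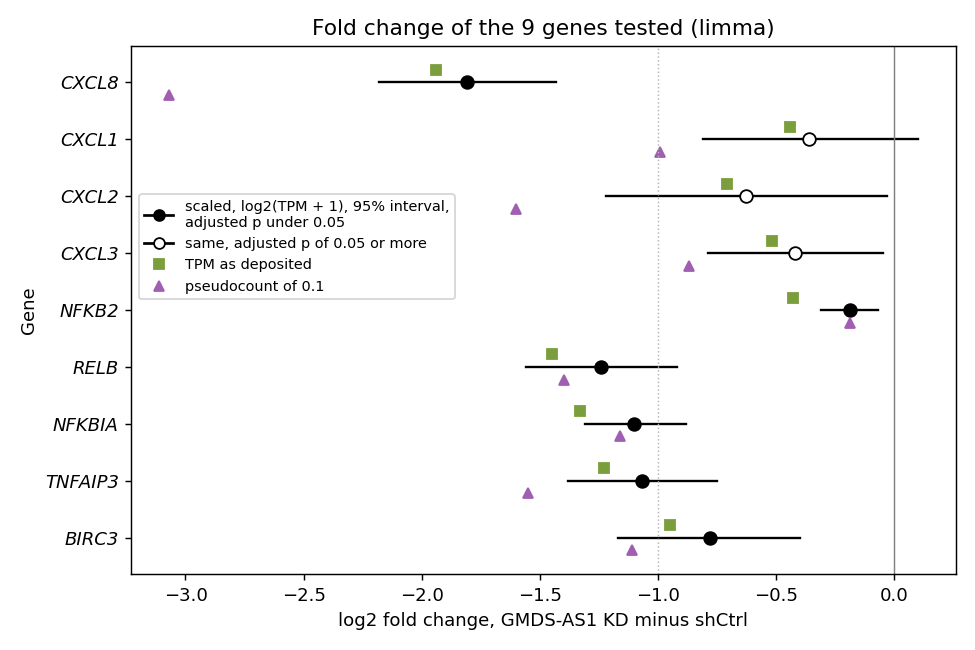
Log2 fold change (GMDS-AS1 KD minus shCtrl, n = 3 each) of the 9 genes tested with limma, as circles with 95% intervals (filled where the adjusted p is under 0.05), beside the value on TPM as deposited (squares) and with a pseudocount of 0.1 (triangles). All 9 values are below 0 under each of these settings, and CXCL8 moves from -1.81 to -3.07 with the smaller pseudocount.

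The order of levels differed between the groups. In shCtrl it ran from NFKB2 through NFKBIA and RELB, whose libraries did not overlap with each other or with the next gene, to CXCL8, TNFAIP3 and BIRC3, which overlapped with each other between 2.51 and 4.81 TPM. CXCL3, CXCL2 and CXCL1 followed and also overlapped, and CCL20 was last. In GMDS-AS1 KD the order from NFKB2 through NFKBIA to RELB was kept without overlap, while CXCL8, with a mean of 0.337 TPM, overlapped in its libraries with CXCL1, CXCL2 and CXCL3.

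Position and 3′ UTR sequence were looked at as further features of the genes. The genes were chosen by symbol as NF-κB targets, and the chemokines belong to a family whose mRNAs often carry AU-rich elements. The cluster and the shares below are therefore descriptions. CXCL8, CXCL1, CXCL3 and CXCL2 lie in 1 cluster of 359 kb on chromosome 4 (GENCODE v29, GRCh38) with 9 protein-coding genes, and of the 5 others, CXCL5, CXCL6, PPBP and PF4 were at or near 0 TPM in both groups. AUUUA, the core of the AU-rich element, was counted in the 3′ UTR of 1 transcript per gene. CXCL2 held 10 copies (13.9 per kb), CXCL8 9 copies (7.19 per kb), CXCL3 7 copies (10.4 per kb), CXCL1, BIRC3 and TNFAIP3 5 each, CCL20 and NFKBIA 3 each, NFKB2 1 and RELB 0. With 3 or more copies stood 8 of the 10 genes, where 40.4% of 12764 tested genes did so, and their median density was 6.92 per kb against 1.52 per kb. Whether the number of copies goes with the size of the difference was not tested. None of the 10 genes had a 3′ UTR match to bases 2 to 8 of either strand of the shRNA, where 6.61% and 9.61% of the tested genes did.

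**Figure D3:**
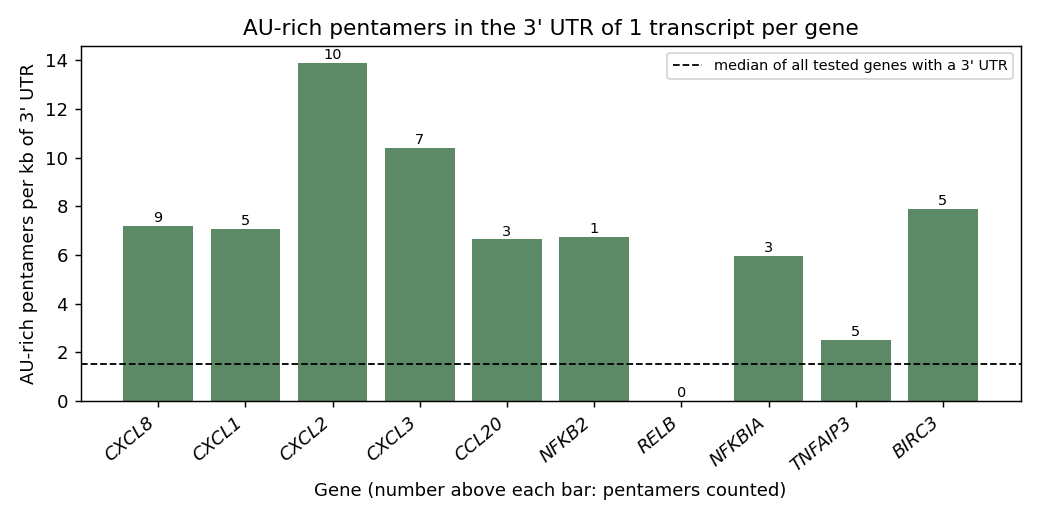
AU-rich pentamers per kb of 3′ UTR (bars) in 1 transcript of each of the 10 genes, with the number counted above each bar and the median of all tested genes as a dashed line at 1.52 per kb. RELB has 0, and the other genes lie above the line.

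The rest of the pathway held genes called on both sides, as did all genes tested, of which 25.9% were called lower and 28.5% higher. Of 87 other NF-κB pathway genes in 9 lists by role, 55 were tested, of which 21 were lower, 17 higher and 17 not called (limma adjusted p under 0.05), with a median log2 fold change of -0.12. On TPM as deposited, without scaling, the split was 29 lower and 10 higher. This setting moves the median of all genes to -0.20 and calls 40.3% of them lower. With scaling, a change of at least 2-fold was called for 4 lower genes and 2 higher genes, against 4.24% and 2.93% of all genes tested. Some genes called lower, IL1RAP among them, reached 0.5 TPM in fewer than 3 GMDS-AS1 KD libraries. They passed the filter because of the shCtrl group, which favours a value below 0, so these counts are descriptions.

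Among 9 genes tested of the IκB family and other inhibitors, 3 were lower and 2 higher. BCL3, an atypical IκB protein, fell from 19 ± 1.99 to 7.52 ± 1.66 TPM (SD over 3 libraries), which is a log2 fold change of -1.01 (SE 0.15, limma adjusted p = 0.00114). TNIP2, a partner of A20, rose from 21.9 ± 1.87 to 37.8 ± 0.945 TPM, a log2 fold change of 1.00 (SE 0.066, limma adjusted p = 2.66e-05). NFKBIB, which encodes IκBβ and was singled out after its values were seen, rose from 37.1 ± 2.33 to 54.2 ± 1.83 TPM (limma adjusted p = 3.05e-05), and the ratio of NFKBIA to NFKBIB was 0.633 to 0.759 in shCtrl and 0.162 to 0.192 in GMDS-AS1 KD. Genes of this list thus moved in both directions, and whether each acts as an inhibitor in these cells was not tested.

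Of 10 genes of kinases and their complex partners tested, 2 were lower and 5 higher, and on TPM as deposited 5 were lower and 2 higher. The highest in level were TAB2, an adaptor of the kinase TAK1, at 30.1 ± 1.01 and 23.9 ± 1.08 TPM (log2 fold change -0.08, limma adjusted p = 0.234), and CHUK, which encodes the kinase IKKα, at 22.7 ± 1.49 and 24.7 ± 1.69 TPM (log2 fold change 0.35, limma adjusted p = 0.00503). Of 11 adaptors tested, 5 were lower and 4 higher, and on TPM as deposited 5 were lower and 2 higher. IRAK1, a kinase of the interleukin-1 receptor complex, rose from 40.3 ± 4.56 to 52.1 ± 2.8 TPM (limma adjusted p = 0.00101), and BIRC2 fell from 26.2 ± 1.81 to 19 ± 0.302 TPM (limma adjusted p = 0.0267).

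Of 8 receptors tested, 5 were lower and 2 higher, and on TPM as deposited 5 were lower and 0 higher. IL1RAP, the accessory chain of the interleukin-1 receptor, fell from 3.69 ± 0.284 to 0.767 ± 0.371 TPM, a log2 fold change of -1.28 (SE 0.17, limma adjusted p = 0.000848). Its GMDS-AS1 KD libraries were at 1.12, 0.38 and 0.8 TPM. It thus passed the filter because of the shCtrl group, which favours a value below 0. Of 8 activating ligands, 1 reached the filter. This was TNFSF12, which encodes TWEAK and rose from 4.73 ± 0.297 to 6.38 ± 0.335 TPM (limma adjusted p = 0.00106), while TNF was listed at no more than 0.03 TPM in any library. Of 13 other chemokines, 1 was tested, CXCL16, at 20.6 ± 2.08 and 18.8 ± 0.892 TPM (limma adjusted p = 0.268, and its direction turned on TPM as deposited). CCL5 was at 0.503 ± 0.215 and 0.21 ± 0.0624 TPM. The receptors of the chemokines described, CXCR1, CXCR2 and CCR6, were all under the filter, with CXCR2 at 0.28 ± 0.052 TPM in shCtrl and 0.12 TPM in each GMDS-AS1 KD library and CXCR1 at 0.0533 TPM in shCtrl and listed at 0 in GMDS-AS1 KD.

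Of 12 other target genes tested, 5 were lower and 3 higher, and on TPM as deposited 9 were lower and 3 higher. GADD45B, a stress response gene, fell from 83.6 ± 2.21 to 20.1 ± 2.71 TPM, a log2 fold change of -1.77 (SE 0.095, limma adjusted p = 1.09e-05). IER3, an immediate early gene, fell from 1360 ± 35 to 560 ± 11.1 TPM, a log2 fold change of -1.03 (SE 0.022, limma adjusted p = 4.52e-07). SOD2, the mitochondrial superoxide dismutase, went the other way and rose from 47.5 ± 2.95 to 101 ± 6.18 TPM, a log2 fold change of 1.31 (SE 0.059, limma adjusted p = 5.23e-06). Target genes of NF-κB outside the 10 were thus found on both sides, as were genes in general.

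**Figure D4:**
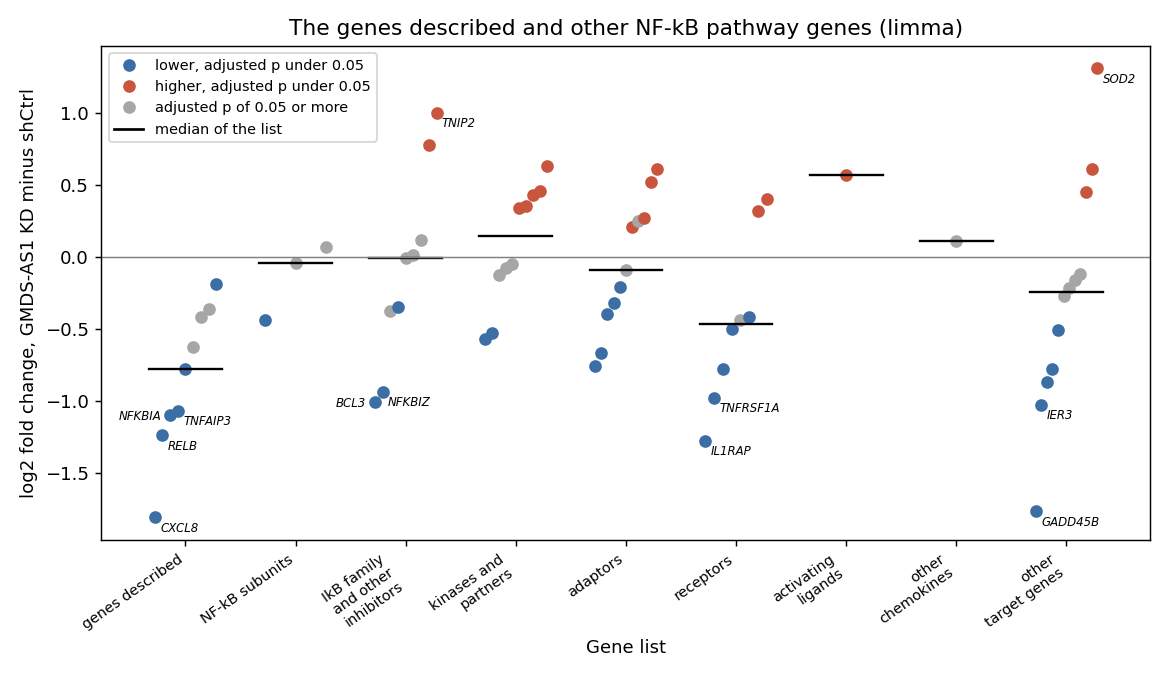
Log2 fold change (GMDS-AS1 KD minus shCtrl, limma) of the 9 genes described that were tested and of 55 other NF-κB pathway genes by role, 1 point per gene, coloured by the call at an adjusted p of 0.05, with the median of each list as a bar. The genes described have a median of -0.78, while the other lists hold genes on both sides of 0 or a single gene.

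The genes most like the 9 in pattern, by Pearson's r of log2 values over the 6 libraries with the mean scaled profile of the 9, were CLIC4 (r = 0.9997), CDCP1 (0.9996), OAT (0.9995), F2RL1 (0.9995) and ANGPTL4 (0.9994), out of 10321 genes with a mean of at least 5 TPM. These values describe 6 libraries in 2 groups, so they mostly restate the difference between the groups. F2RL1, a protease-activated receptor, was at 268 ± 9.9 TPM in shCtrl and 109 ± 0.476 TPM in GMDS-AS1 KD, and ANGPTL4, a secreted inhibitor of lipoprotein lipase, at 38.6 ± 2.42 and 9.94 ± 0.539 TPM (SD, n = 3).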

How the data were processed

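RNA of HCT116 cells was sequenced in 3 shCtrl and 3 GMDS-AS1 shRNA2 libraries, grouped by the sample titles. The authors deposited TPM per Ensembl gene, and their methods name Cufflinks, RSEM and, for their own comparison, DESeq2; the submitters' processing notes name Trimmomatic 0.27, TopHat2 2.1.1 and GRCh38.p13. A value was read for 60662 genes, and 2 genes with broken lines were left out. Of the identifiers, 58394 were found in GENCODE v29 (GRCh38), which gave positions, transcripts and 3′ UTRs. TPM is not a count, so log2(TPM + 1) was tested with limma 3.58.1 (R 4.3.3, variance trend) over both groups and without a replicate block. Libraries were scaled by an unweighted trimmed mean of M-values on the genes tested (30% of log ratios and 5% of mean values trimmed), which lowered the GMDS-AS1 KD factors by 0.25 on the log2 scale. The filter was 0.5 TPM in at least 3 libraries, and p values were adjusted by Benjamini-Hochberg over all 16901 genes tested. The fit was tested on simulated data. Depth is not given by TPM, and the reads behind low values are estimates that cover no counting error.

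The 10 genes, the pathway lists, the filter and the scaling were chosen with earlier results of these data known. Besides all 10 genes, the text names, from each list, up to 4 genes called at least 2-fold or otherwise up to 2 with the highest mean TPM, the 5 genes most like the pattern, GMDS-AS1, and marker genes; the ratios within a library, the chemokine sums and NFKBIB were chosen after the values were seen. The 14 alternatives covered scaling, pseudocount, filter, variance trend, replicate block and leaving out each library. Promoters came from RefSeq (GRCh38.p14). These steps used Python 3.11.15 with numpy 2.4.6 and pandas 2.3.3.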

Additional observations from a re-analysis of the deposited data

How the results depend on the processing

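Under 14 alternatives the number of the 10 genes called lower was 6 to 8, and 0 were called higher in any. Leaving out 1 library gave 6 to 8. The share of all genes tested that was called lower ran from 11.4% without a filter to 40.3% on TPM as deposited. It was 22.7% to 23.5% when 1 library was left out. CXCL8, RELB, NFKBIA, TNFAIP3 and BIRC3 were called lower in all 14, with log2 fold changes of -3.07 to -1.70, -1.45 to -1.12, -1.33 to -1.02, -1.55 to -1.01 and -1.11 to -0.69. Without a filter the 6 called genes included CCL20 in place of NFKB2. The median log2 fold change of the genes tested, -0.78, was -0.95 on TPM as deposited, -1.16 with a pseudocount of 0.1, -1.09 with a filter of at least 1 TPM, which leaves 6 of the genes, and -0.94 to -0.71 when 1 library was left out. Of the other pathway genes, 10 in place of 17 were called higher on TPM as deposited; TRAF2, called higher with scaling, then had a value below 0. Over all genes that setting called 6814 lower and 2756 higher, in place of 4372 and 4810. CXCL3 was also called with upper-quartile scaling (adjusted p = 0.0437) and without the variance trend (0.0424), and it missed the threshold in 9 of 13 alternatives.

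The replicate numbers did not pair the libraries: the deviations of same-numbered libraries from their group means correlated at 0.029, -0.038 and 0.014. With the replicate block, 7 of the genes were called lower, CXCL2 among them (-0.63, limma adjusted p = 0.0342), and the adjusted p of GMDS-AS1 was 0.0518. The same setting called 24.2% of all genes tested lower. Precision is limited by 3 libraries per group and, for CXCL1, CXCL2, CXCL3 and CCL20, by levels near or under 1 TPM.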
